A study of Mus musculus with 20 samples.

Results

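The genes described here are 40 components of the mitotic machinery, chosen by name: the spindle checkpoint, the cyclins and kinases that start mitosis, the chromosomal passenger complex, the kinetochore, the mitotic kinesins, spindle assembly factors, the cytokinesis apparatus, chromosome condensation and the release of sister chromatids. They are 40 of the 22911 mouse genes that have a probe on the array, and all 40 were measured and tested. The choice was made with earlier results of these data known. Hair follicle stem cells of male mice were profiled on 20 single-colour Agilent arrays, 1 sample to an array. In telogen, the resting phase of the hair cycle, there were 5 groups of 3 arrays: mice 5 months old on normal diet (ND 3M) or high fat diet (HFD 3M) for 3 months, mice 2 months old on ND or HFD for 4 days (ND 4d, HFD 4d), and aged mice 24 months old. In anagen, the growth phase, each of the 5 conditions had 1 array, so a single condition has no replicate there. The labels name no diet for the aged mice and no strain; how the cells were obtained is not stated in these sources. Nothing in the labels says that the replicates came from separate animals, so the p-values measure only the spread between these samples.

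Mitosis is run by a wave of transcription that peaks late in the cell cycle. Cyclin B with Cdk1 drives entry, Plk1 and the Aurora kinases build the spindle, kinetochores tie chromosomes to microtubules, and the checkpoint holds back the anaphase-promoting complex until each chromosome is attached. Bulge stem cells of the hair follicle rest for most of the hair cycle and divide early in anagen, so these genes report cycling cells. Many of their promoters carry a cell cycle genes homology region (CHR), read by the DREAM complex in resting cells and by B-Myb and FoxM1 in dividing ones, and CCAAT boxes bound by NF-Y.

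Promoter windows of 300 bases, from 250 before to 50 after the transcript start, were found in RefSeq (GRCm38.p6) for 33 of the 40 genes, in 36 windows, which overlap where a gene has a second start. Ccna2, Cdc25c, Aurkb, Incenp, Spc24, Kif20a and Tpx2 had no entry in the table. The CHR letters searched were TTTGAA and the NF-Y letters CCAAT, each on both strands, and neither motif can overlap the other by more than a base. TTTGAA was present in 28 of the 36 windows (77.8%), against 17.9% of all 32851 windows. CCAAT was present in 77.8% of the windows of these genes and 37.4% of all windows, and at least 2 copies in 55.6% against 11.7%. Both motifs together were present in 69.4% and 7.0%. Position set the CHR apart further: 69.4% of the mitotic windows and 4.9% of all windows held it within 50 bases of the start. Among the genes that passed the anagen test described further on, 80.0% of 25 windows held the CHR letters and 84.0% CCAAT, and among the others 72.7% and 63.6% of 11 windows. A match is a run of letters, and these arrays measured no binding.

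The 150 bases upstream of the start are shown for 7 genes, 5 of them higher in anagen and, for contrast, Bub3 and Pttg1, which were not called. Capitals mark TTTGAA or CCAAT on the strand shown or their reverse complements, TTCAAA and ATTGG. Positions in GRCm38.p6 are Cdk1 chr10:69352913-69353062 on the minus strand, Top2a chr11:99024190-99024339 on the minus strand, Mki67 chr7:135716380-135716529 on the minus strand, Kif11 chr19:37376232-37376381 on the plus strand, Cdc20 chr4:118437344-118437493 on the minus strand, Bub3 chr7:131560220-131560369 on the plus strand and Pttg1 chr11:43425982-43426131 on the minus strand. All are read 5′ to 3′ in the direction of transcription.
Cdk1: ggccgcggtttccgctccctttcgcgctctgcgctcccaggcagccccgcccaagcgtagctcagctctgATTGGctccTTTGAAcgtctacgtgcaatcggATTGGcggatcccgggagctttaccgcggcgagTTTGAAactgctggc
Top2a: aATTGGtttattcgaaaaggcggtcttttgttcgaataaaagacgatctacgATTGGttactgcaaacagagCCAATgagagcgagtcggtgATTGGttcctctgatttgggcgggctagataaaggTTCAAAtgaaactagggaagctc
Mki67: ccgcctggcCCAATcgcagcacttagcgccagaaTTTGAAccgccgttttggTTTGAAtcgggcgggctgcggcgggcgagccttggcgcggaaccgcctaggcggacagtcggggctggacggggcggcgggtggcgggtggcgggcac
Kif11: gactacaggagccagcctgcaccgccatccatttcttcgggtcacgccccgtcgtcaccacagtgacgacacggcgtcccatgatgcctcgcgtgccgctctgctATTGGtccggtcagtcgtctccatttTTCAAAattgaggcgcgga
Cdc20: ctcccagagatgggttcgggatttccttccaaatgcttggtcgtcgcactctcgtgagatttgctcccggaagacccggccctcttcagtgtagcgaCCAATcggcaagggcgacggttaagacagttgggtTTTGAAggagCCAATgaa
Bub3: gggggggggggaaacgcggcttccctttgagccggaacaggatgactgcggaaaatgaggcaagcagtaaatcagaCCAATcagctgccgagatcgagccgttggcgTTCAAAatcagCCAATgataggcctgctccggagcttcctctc
Pttg1: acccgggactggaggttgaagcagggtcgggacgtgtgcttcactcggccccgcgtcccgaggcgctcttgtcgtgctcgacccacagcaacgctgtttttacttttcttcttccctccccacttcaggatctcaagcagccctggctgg
With positions counted from the transcript start, Cdk1 carries CHR matches at -71 and -15 and CCAAT boxes on the opposite strand at -80 and -48. Cdc20, Kif11 and Top2a each have a CHR match close to the start, at -18, -19 and -23, and the Mki67 matches lie farther out, at -116 and -98. Bub3, which hardly differed between the phases, has a CHR match at -43 between CCAAT boxes at -74 and -32. Pttg1 has neither motif in the 300 bases.

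**Figure D1:**
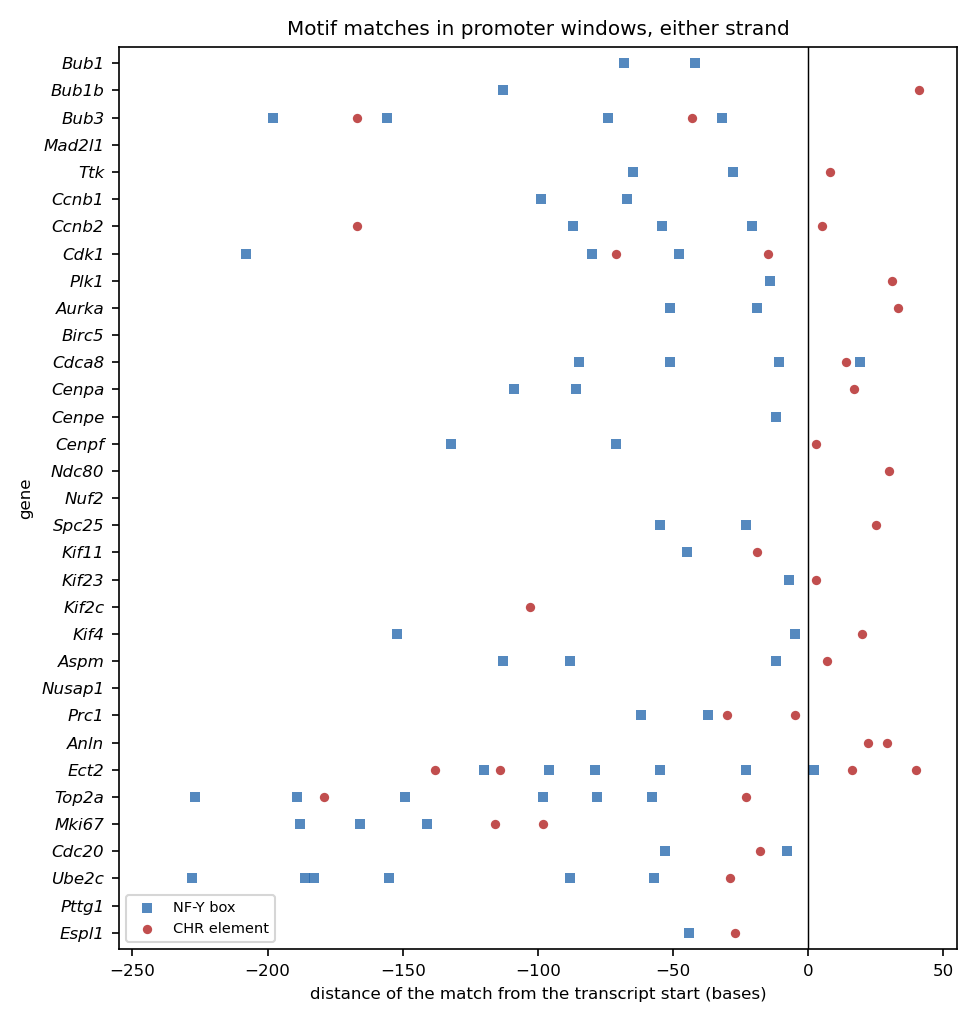
Positions of CHR elements (circles) and NF-Y boxes (squares) on either strand, as the distance in bases of the match from the transcript start, over all windows of 33 mitotic genes. CHR matches gather close to the start, with NF-Y boxes mostly upstream of them, and Mad2l1, Birc5, Nuf2, Nusap1 and Pttg1 show none of either.

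Levels are given as the log2 intensity of a gene's brightest probe relative to the 75th percentile of its array, so 0 is the level of that percentile, and levels are compared only for the same probe. Per array, 60.7% to 83.49% of spots were well above background, the scanner's own detection call, and 0 spots were saturated. All 40 genes were well above background on all 5 anagen arrays, 24 were so on all 20 arrays, and the other 16 missed at least 1 of the 15 telogen arrays, down to Bub1 with 4. Of the bulge genes, 13 of 14 were well above background on all 20 arrays, with Cd34 at a mean of 5.35 and Krt15 at 6.72 in telogen. Markers of other cells were detected on all 20 arrays as well: 8 of 9 measured genes of differentiated epidermis, 9 of 12 of hair germ and matrix, 5 of 7 sebaceous, 5 of 8 macrophage and Langerhans, 4 of 7 T cell, 4 of 7 melanocyte and 4 of 6 adipocyte and muscle genes. The counts were 2 of 11 for fibroblast and papilla, 2 of 5 for red cells, 1 of 7 for endothelium and 1 of 6 for mast cells. Among those genes, Pdgfrb, Sox2 and Alx4 of 11 fibroblast and papilla genes, Cdh5 and Kdr of 7 endothelial genes and Cpa3 of 6 mast cell genes were not well above background on any array.

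Anagen was compared with telogen to ask how far mitotic transcripts follow the growth phase. The 40 genes were higher in anagen by a median of 3.17 log2 units, or 9-fold, with a range of -0.57 to 5.21, while the median over all 22911 genes was -0.14. The difference was positive for 39 of them. By limma's moderated test over all 20 arrays with condition as a factor, 28 passed an adjusted p of 0.05 in the direction of anagen and 0 in the other (background 2.81% of 18727 genes higher and 3.31% lower), and 39 passed an unadjusted p of 0.05, 1 of them lower, as did 22.9% of all genes tested. Changing the scale to each array's median left 29 called and moved the median of all tested genes from -0.16 to 0.06, with 653 of all genes higher and 336 lower in place of 526 and 619. On 17 of the 40 genes all 5 anagen arrays lay above all 15 telogen arrays, as on 0.791% of 18721 tested genes with a value on every array. Fewer cycling cells and less RNA per cell cannot be told apart in such bulk samples. All 5 anagen arrays lay on slide column 1 and all 15 telogen arrays on columns 2 to 4. Phase and slide column therefore cannot be told apart either.

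**Figure D2:**
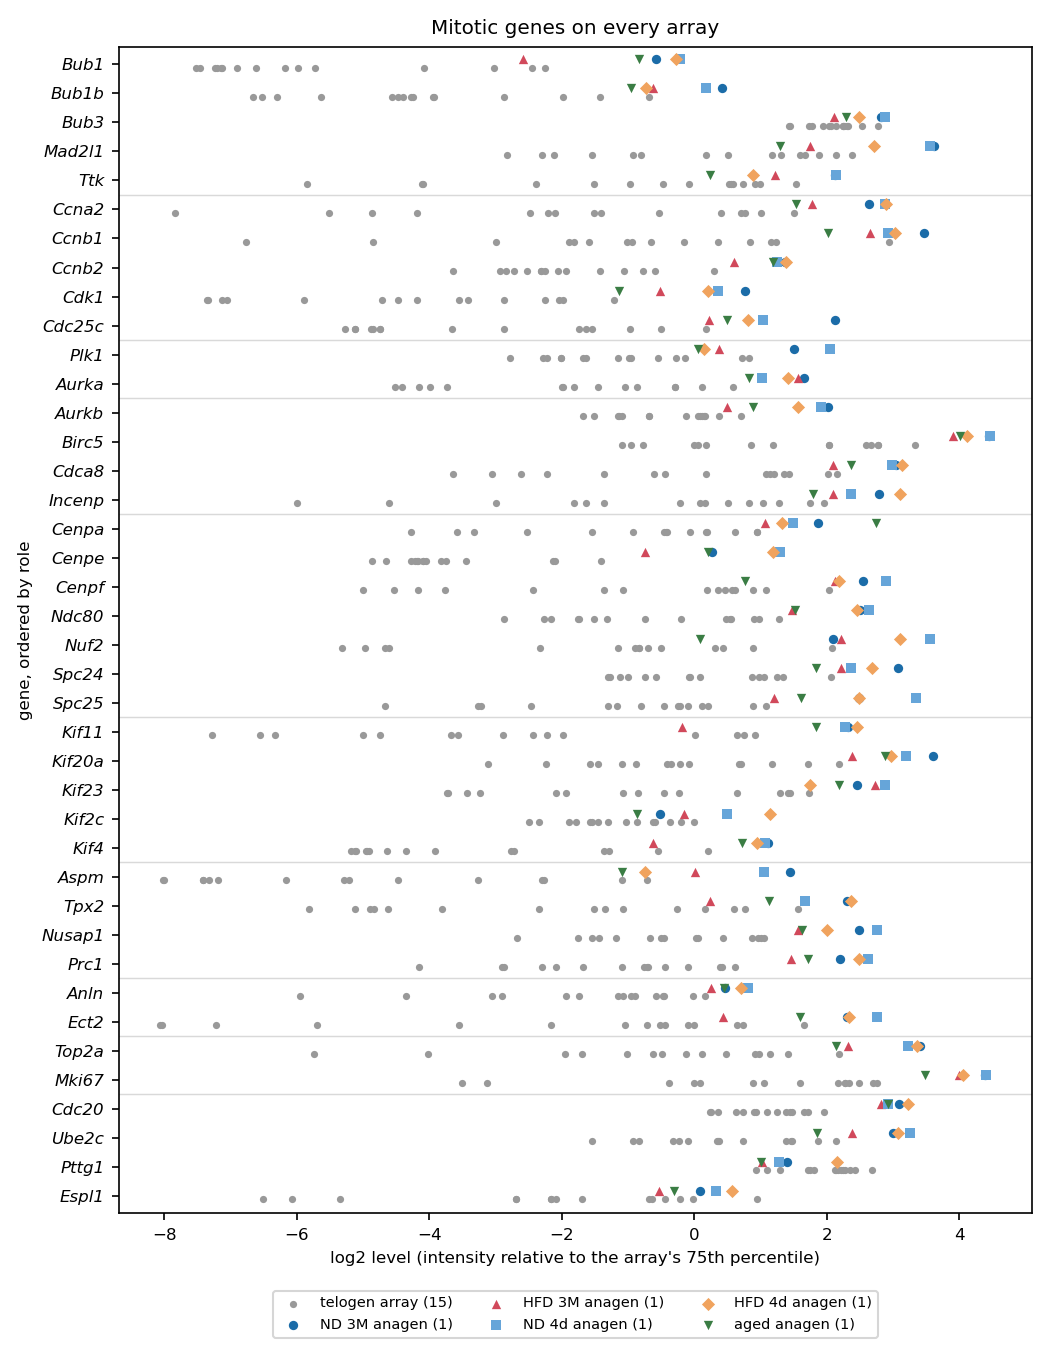
Log2 level of each of the 40 genes relative to the 75th percentile of the array, with 15 telogen arrays in grey and the 5 anagen arrays as coloured symbols, genes ordered by role. For most genes the anagen symbols sit close together to the right of a wide grey spread, while for Pttg1 and Espl1 no anagen array lies above all telogen arrays, and for Bub3, Ttk, Plk1, Kif2c and Ccnb1 only 2 do.

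**Figure D3:**
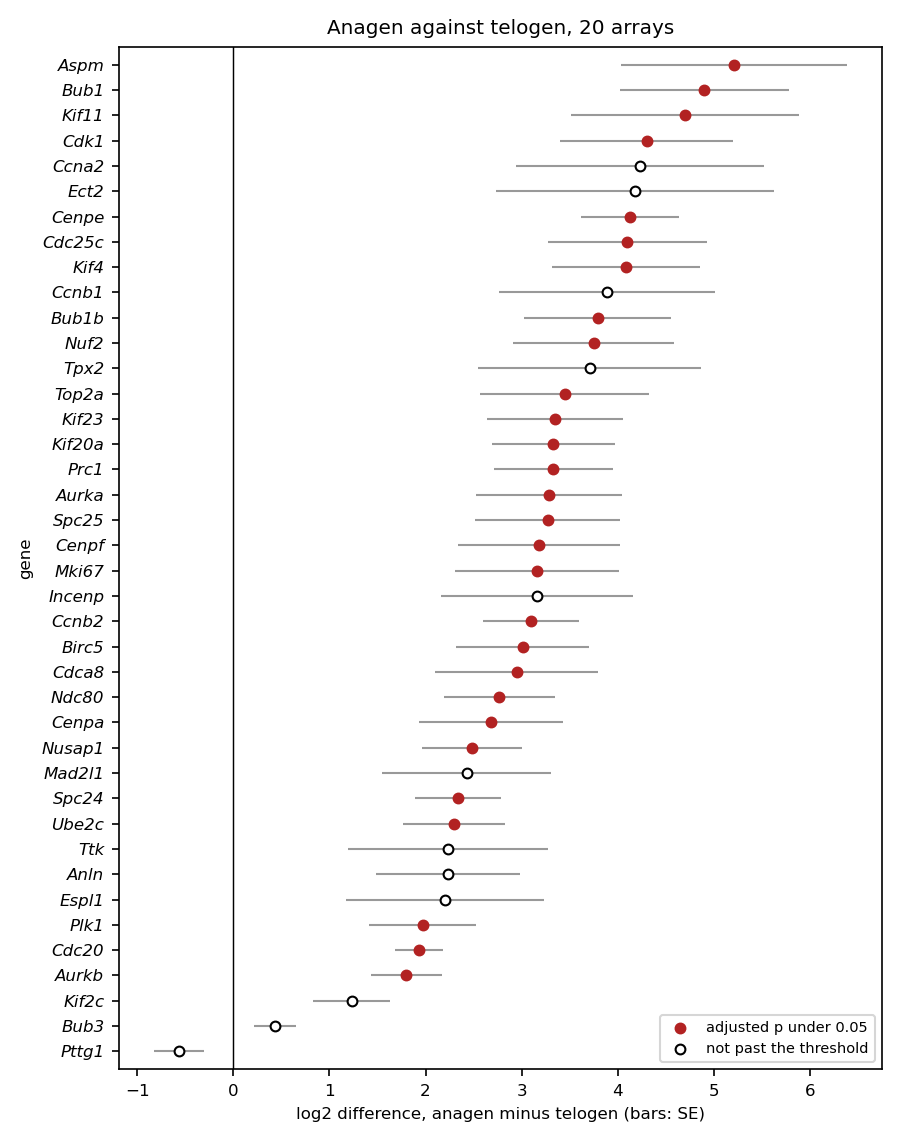
Log2 difference between anagen and telogen from the limma fit for each gene, with its SE as a bar, ordered by size. Filled points are the 28 genes with an adjusted p under 0.05. The differences run from -0.57 for Pttg1 to 5.21 for Aspm, which was well above background on 7 of 15 telogen arrays.

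Values on the 5 anagen arrays are given in the order ND 3M, HFD 3M, ND 4d, HFD 4d and aged, and telogen values as the lowest, median and highest of the 15 arrays. Of the 5 spindle checkpoint genes, 2 rose, with a median difference of 2.43 over the 5. Bub1, the kinase that loads checkpoint proteins on the kinetochore, measured -0.58, -2.59, -0.21, -0.28 and -0.83 in anagen against -7.52, -6.61 and -2.25 in telogen, where 4 of 15 arrays were well above background. Only the HFD 3M anagen array fell inside the telogen range, and the difference was 4.90 ± 0.88 (SE, adjusted p = 0.00317). No telogen group had Bub1 well above background on all its arrays, so it entered the test through anagen alone, where it is high. Bub1b, which encodes the anaphase inhibitor BubR1, measured 0.41, -0.63, 0.18, -0.73 and -0.95 against -6.67, -4.27 and -0.69, with 11 telogen arrays well above background. ND 3M telogen replicate 3 reached the anagen range, and the difference was 3.79 ± 0.76 (adjusted p = 0.00747). Mad2l1, which forms the inhibitory complex with Cdc20, and Ttk, the kinase that starts checkpoint signalling, had differences of 2.43 and 2.23 with overlapping ranges and were not called. Bub3, the adaptor of Bub1 and BubR1, had a difference of 0.43 ± 0.22 (adjusted p = 0.251), from levels of 2.81, 2.11, 2.88, 2.48 and 2.29 in anagen and 1.43, 2.14 and 2.77 in telogen.

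All 5 genes for mitotic entry had differences of 3.10 or more, and 3 were called. Cdk1, the kinase of mitotic entry, measured 0.76, -0.52, 0.35, 0.21 and -1.14 in anagen and -7.35, -4.19 and -1.21 in telogen, with 10 telogen arrays well above background. Each anagen array exceeded each telogen array, the nearest being the aged one, and Cdk1 rose by 4.30 ± 0.90 (adjusted p = 0.00945). Ccnb2, a B-type cyclin, measured 1.37, 0.60, 1.25, 1.38 and 1.19 against -3.64, -2.26 and 0.29, again without overlap. It rose by 3.10 ± 0.50 (adjusted p = 0.00157). Cdc25c, the phosphatase that activates Cdk1, measured 2.13, 0.22, 1.03, 0.81 and 0.49 against -5.27, -3.66 and 0.17, and rose by 4.10 ± 0.83 (adjusted p = 0.00752). The gap was narrow, since HFD 3M telogen replicate 2 reached 0.17. Ccnb1, the main mitotic cyclin, missed the threshold: its anagen values were 3.47, 2.65, 2.92, 3.03 and 2.01, and its telogen values ran from -6.77 through a median of -0.94 to 2.94. Aged telogen replicate 2 held that highest value, above 3 of the anagen arrays, and the difference was 3.89 ± 1.12 (adjusted p = 0.0501). Ccna2, cyclin A, did not overlap between phases, but its telogen spread was so wide that a difference of 4.23 ± 1.29 was not called.

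Both mitotic kinases rose. Plk1, the polo-like kinase that matures centrosomes, measured 1.51, 0.37, 2.04, 0.14 and 0.05 in anagen and -2.79, -1.16 and 0.82 in telogen. HFD 3M, HFD 4d and aged anagen lay within the telogen range, and the difference of 1.97 ± 0.56 was just past the threshold (adjusted p = 0.0478). Aurka, the spindle pole kinase, showed no overlap and a difference of 3.29 ± 0.76. In the chromosomal passenger complex, which corrects faulty attachments, 3 of 4 genes rose. Aurkb, its kinase, measured 2.02, 0.49, 1.91, 1.56 and 0.89 against -1.68, -0.13 and 0.71 in telogen, with HFD 3M anagen inside that range, and rose by 1.80 ± 0.37 (adjusted p = 0.0079). Birc5, or survivin, was at 4.44, 3.90, 4.47, 4.11 and 4.01 against -1.1, 1.18 and 3.33, with no overlap and a difference of 3.01 ± 0.69 (adjusted p = 0.0154). Cdca8, or borealin, had a difference of 2.95 and was called, and Incenp, the scaffold, had 3.16 ± 1.00 and was not.

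All 7 centromere and kinetochore genes rose. Cenpe, the kinesin that carries chromosomes to the metaphase plate, had the smallest p of the 40. It measured 0.27, -0.75, 1.30, 1.19 and 0.21 in anagen and -4.87, -4.09 and -1.41 in telogen, so all anagen arrays lay above all telogen arrays, and it rose by 4.13 ± 0.51, or 17.5-fold (adjusted p = 0.000192). Ndc80, the microtubule-binding core of the outer kinetochore, measured 2.50, 1.48, 2.64, 2.45 and 1.52 against -2.87, -0.75 and 1.27, also without overlap, and rose by 2.77 ± 0.58 (adjusted p = 0.00956). Its partners in the Ndc80 complex moved with it: Nuf2 by 3.75, Spc25 by 3.27 and Spc24 by 2.34. Spc24 measured 3.07, 2.21, 2.36, 2.68 and 1.84 against -1.31, -0.07 and 2.06 (adjusted p = 0.00551), and ND 3M telogen replicate 1, the highest telogen array, exceeded the aged anagen array. Cenpa, the histone H3 variant that marks centromeres, and Cenpf, a kinetochore protein, had differences of 2.68 and 3.18.

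Among 5 kinesin motors, 4 rose. Kif11, the Eg5 motor that separates spindle poles, measured 2.32, -0.18, 2.27, 2.46 and 1.83 in anagen and -7.28, -2.89 and 0.92 in telogen, with 12 telogen arrays well above background and HFD 3M anagen within the telogen range. Its difference was 4.70 ± 1.19 (adjusted p = 0.0276). Kif4, a chromosome-bound motor of the central spindle, measured 1.11, -0.62, 1.07, 0.95 and 0.72 against -5.19, -4.36 and 0.20, and rose by 4.09 ± 0.77 (adjusted p = 0.00453). ND 3M telogen replicate 1 and HFD 3M telogen replicate 3 were above the HFD 3M anagen array. Kif20a, which acts in cytokinesis, measured 3.60, 2.38, 3.20, 2.97 and 2.87 against -3.12, -0.35 and 2.18, with no overlap, and rose by 3.33 ± 0.64 (adjusted p = 0.00517). Kif23, a centralspindlin motor, rose by 3.35. Kif2c, a microtubule depolymerase, had a difference of 1.23 ± 0.40 and was not called.

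Of the 4 spindle assembly genes, 3 rose. Prc1, which bundles microtubules of the central spindle, measured 2.20, 1.46, 2.62, 2.49 and 1.71 in anagen and -4.15, -0.76 and 0.61 in telogen, with no overlap, and rose by 3.33 ± 0.62 (adjusted p = 0.00422). Nusap1, a microtubule-bundling protein, measured 2.49, 1.57, 2.76, 2.00 and 1.63 against -2.67, -0.46 and 1.05, also without overlap, and rose by 2.48 ± 0.52 (adjusted p = 0.00941). Aspm, a spindle pole protein, had a fitted difference of 5.21 ± 1.18, whose size is uncertain because only 7 of 15 telogen arrays were well above background. Tpx2, which activates Aurora A on the spindle, measured 2.31, 0.24, 1.67, 2.37 and 1.12 against -5.81, -1.51 and 1.56. HFD 3M and aged anagen overlapped telogen, and its difference of 3.71 ± 1.16 was not called (adjusted p = 0.0677).

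Neither cytokinesis gene was called. Anln, the contractile ring scaffold anillin, measured 0.46, 0.25, 0.81, 0.70 and 0.45 in anagen and -5.96, -1.08 and 0.16 in telogen. The phases did not overlap, telogen reached its lowest value on ND 4d replicate 2, and the difference was 2.23 ± 0.75 (adjusted p = 0.0889). Ect2, the exchange factor that activates RhoA at the furrow, had a difference of 4.18 ± 1.45 and the widest spread within telogen groups, an SD of 3.32.

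Both chromosome structure genes rose. Top2a, the topoisomerase that untangles sister chromatids, measured 3.41, 2.32, 3.22, 3.36 and 2.14 in anagen and -5.74, -0.12 and 2.19 in telogen, where HFD 3M replicate 1 just exceeded the aged anagen array. Its difference was 3.45 ± 0.88 (adjusted p = 0.0285). Mki67, the Ki-67 protein that coats mitotic chromosomes, measured 4.39, 3.99, 4.40, 4.06 and 3.48 against -3.51, 1.60 and 2.75, with no overlap, and rose by 3.16 ± 0.85 (adjusted p = 0.0363).

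Of the 4 genes for anaphase, 2 rose. Cdc20, the activator of the anaphase-promoting complex, measured 3.09, 2.81, 2.92, 3.23 and 2.92 in anagen and 0.23, 1.09 and 1.95 in telogen. It was among the tightest of the 40 in both phases, and without overlap it rose by 1.93 ± 0.25, or 3.80-fold (adjusted p = 0.000261). Ube2c, the ubiquitin-conjugating enzyme of that complex, rose by 2.30, and Espl1, separase itself, had a difference of 2.20 ± 1.03 and was not called. Pttg1, which encodes securin, the inhibitor of separase, stood apart: it measured 1.40, 1.02, 1.28, 2.15 and 1.01 in anagen and 0.93, 2.14 and 2.68 in telogen. Its difference was -0.57 ± 0.26 (adjusted p = 0.2). Without the HFD 4d anagen array it was -0.98 with an adjusted p of 0.0106, and with slide as a block -0.98 with an adjusted p of 0.027. A second Pttg1 probe, well above background on 10 arrays, also gave -0.57. Of the 21 further probes of these genes, the other 20 were all higher in anagen. The size of a difference depended on the probe. A second Cdc20 probe, well above background on all 20 arrays, gave 3.62, and a second Kif2c probe, on 16 arrays, 3.44. Further Ccnb1 probes gave less than the probe used, at 2.80 and 3.26.

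Leaving out single anagen arrays changed how many genes were called: 17 without ND 3M anagen, 14 without ND 4d anagen and 16 without HFD 4d anagen, 15 of them higher and Pttg1 lower. With slide as a block it was 17, again with Pttg1 as the 1 lower gene. All 28 called genes kept a positive difference in each of the up to 31 alternative analyses, and 13 kept the call in each that tested them: Cenpe, Cdc20, Ccnb2, Bub1, Prc1, Kif4, Kif20a, Spc24, Aurkb, Bub1b, Cdc25c, Nusap1 and Ndc80. Of these, Bub1 entered the test through its anagen arrays alone. Kif23 lost the call without ND 4d anagen (adjusted p = 0.0592). Cdk1 lost it without HFD 4d anagen and with slide as a block (highest adjusted p = 0.0662). Nuf2, Spc25, Aspm, Birc5, Ube2c, Aurka, Kif11, Cenpf and Top2a lost it without at least 1 anagen array, with highest adjusted p between 0.073 and 0.157. Of these, all but Spc25 and Kif11 also lost it with slide as a block, and Cenpf also without HFD 4d telogen replicate 3. Mki67, Cenpa, Cdca8 and Plk1 lost it with slide as a block, without single anagen arrays and without several single telogen arrays, up to an adjusted p of 0.194 for Plk1.

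Set within each condition, the anagen array could be compared with 3 telogen arrays, with no test. In ND 4d the median difference of the 40 genes was 4.14, and 39 lay above all 3 telogen arrays, as did 20.9% of all tested genes. In HFD 4d it was 3.52 with 40 above (23.9%), and in ND 3M 2.97 with 39 above (22.1%). In aged cells it was 3.23 with 30 above (23.4%). HFD 3M had the smallest gap, 1.37 with 29 above (36.5%). The ND 3M, ND 4d and aged arrays of both phases share a slide, while the HFD anagen arrays lay on other slides than their telogen arrays.

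The wider cell cycle programme moved in the same direction. Of 68 other mitotic genes, 33 were called higher and 1 lower, with a median of 2.39 against -0.16 over all tested genes. Racgap1, the centralspindlin partner of Kif23, rose by 2.40 ± 0.33 (adjusted p = 0.000497), Cep55, which acts at abscission, by 1.80 and Kifc1, a minus-end kinesin, by 1.52. Fam83d fell by 1.09. Of 42 DNA replication genes 23 were called higher and 0 lower (median 1.65), among them Mcm5 by 2.41, Rrm1 by 1.96 and Mcm2 by 2.86. Of 20 regulators of mitotic transcription, 5 were called higher (median 0.95): E2f3 by 4.37, E2f1 by 1.90, Foxm1 by 4.14, and with them Tfdp1 and E2f8. By contrast 0 of 24 genes for subunits and cofactors of the anaphase-promoting complex and cohesin were called, with a median of 0.26. Among 12 G1 cyclins, kinases and inhibitors the cell cycle inhibitor Cdkn1c was called lower, by an uncertain amount since only 1 of 5 anagen arrays was well above background, and Cdk4 rose by 0.73.

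Markers of other cells differed between the phases too, and their part in the result was not tested. Of 14 bulge genes 5 fell, led by Cd34, which fell by 2.19, Fgf18, which fell by 4.78, and Itgb4, which fell by 1.07, and the summed linear level of the list was 452 to 798 in telogen and 412 to 588 in anagen. Krt28 of 12 measured hair germ and matrix genes rose by 1.37, with sums of 9.84 to 22.3 and 11.9 to 19.6, and Krt1 of 9 genes of differentiated epidermis by 1.26, with sums of 113 to 278 and 174 to 270. Among 11 fibroblast and papilla genes Col1a2 fell by 1.90 and Dcn was at least 2.38-fold higher in anagen, well above background on 3 anagen and 0 telogen arrays, with list sums of 2.5 to 10.1 in telogen and 1.08 to 2.51 in anagen. Mitf of 7 melanocyte genes fell by 2.34 (sums 4.38 to 11.1 and 2.87 to 7.41), and Hba-a2 of 5 red cell genes fell by 1.24 (sums 0.496 to 5.87 and 0.485 to 1.27). No gene was called in the sebaceous list (sums 5.43 to 12 and 6.47 to 13.2), the macrophage and Langerhans list (up to 220 and 101 to 183), the T cell list (3.63 to 13 and 5.57 to 11.4) or the endothelial list (0.214 to 1.46 and 0.472 to 1.67). The same held for the mast cell list (0.312 to 0.828 and 0.24 to 0.722) and the adipocyte and muscle list (24.8 to 51.4 and 25.9 to 41.9).

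Telogen arrays were not uniform in the level of the mitotic genes. Whether the higher arrays held more cycling cells was not tested. The median of the 40 genes on an array ran from -2.48 to 0.74 in telogen and from 1.34 to 2.36 in anagen, with no overlap. In ND 3M telogen it was 0.61, -1.72 and 0.11 for replicates 1, 2 and 3, and in HFD 3M 0.74, -0.79 and 0.00. Replicate 2 was the low array of both. In ND 4d it was -0.59, -1.75 and -2.20 and in HFD 4d 0.10, -2.48 and -2.26, so that replicate 1 stood above the others in each. In aged telogen it was -2.14, 0.07 and -2.02, with replicate 2 high. Replicate 1 was on slide column 2 in each group and was the highest in 4 of the 5; aged replicate 2 was the exception.

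**Figure D4:**
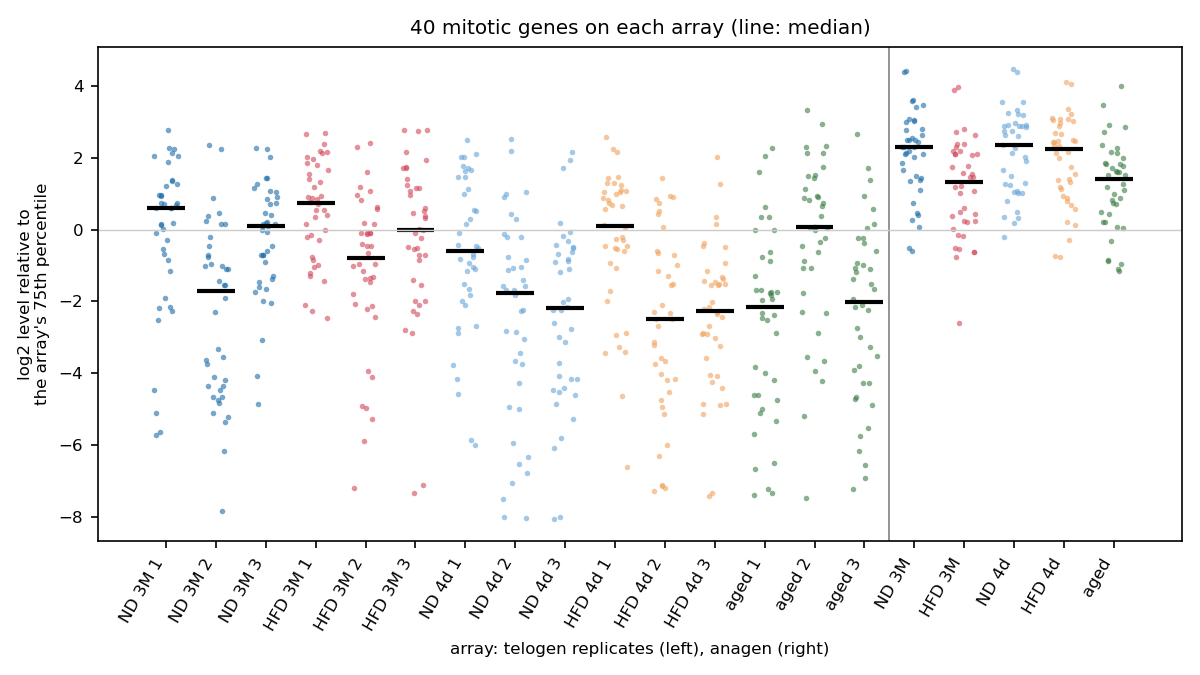
Log2 level of the 40 genes relative to the 75th percentile of the array, a point per gene and a line at the median, for the 15 telogen arrays (left) and the 5 anagen arrays (right). The telogen medians range from -2.48 to 0.74 with 1 or more low and high arrays in each group, and the anagen medians from 1.34 to 2.36.

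The number of the 40 genes above the array's 75th percentile separated the same arrays. It was 25, 8 and 21 on the ND 3M telogen arrays, 26, 11 and 21 on HFD 3M, 16, 7 and 4 on ND 4d, 21, 8 and 4 on HFD 4d and 7, 22 and 7 on aged, and 38, 32, 39, 37 and 34 on the anagen arrays. Detection separated the arrays less, with 32 to 40 genes well above background on each telogen array. Within HFD 4d, 35 of the 40 genes were highest on replicate 1, where 36.7% of all genes were, and within aged telogen 30 were highest on replicate 2, against 26.8% of all genes. In ND 3M 22 were highest on replicate 1 and 15 on replicate 3 (35.3% and 32.9% of all genes), in HFD 3M 25 and 11 (37.9% and 30% of genes), and in ND 4d 22 on replicate 1 and 10 on replicate 2 (29.6% and 38.3%).

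Single genes show the pattern in aged telogen. Ccnb1 was at -1.82, 2.94 and -2.99 on replicates 1, 2 and 3, Mki67 at -0.01, 2.34 and -3.51 and Birc5 at 0.00, 3.33 and 0.05. Replicate 2 was high each time, with Ccnb1 inside its anagen range. In HFD 4d Kif11 was at 0.65, -7.28 and -3.57 and Top2a at 0.12, -4.02 and -0.49, both highest on replicate 1. Ndc80 broke the pattern in both groups, at -0.20, 0.90 and -2.87 in HFD 4d and at -1.74, -1.76 and -1.52 in aged telogen.

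Other gene lists followed these arrays in part, and in HFD 3M the DNA replication median was highest on replicate 3 rather than replicate 1. The median of the 42 DNA replication genes was 0.80, -0.06 and 0.70 in ND 3M telogen, 0.79, -0.08 and 0.87 in HFD 3M, 0.41, -0.41 and -0.42 in ND 4d, 0.40, -0.32 and -0.33 in HFD 4d and -0.40, 1.63 and -0.03 in aged. The 68 other mitotic genes were highest on the same array as the 40 in HFD 3M (-0.54), HFD 4d (-1.04), aged (-0.63) and ND 3M telogen (-1.06), and in ND 4d also on replicate 1 (-0.53). The bulge list, by contrast, stayed between 4.66 and 5.76 over the 15 arrays. The median of the measured T cell markers was -1.78, -1.71 and -4.14 in ND 3M, -0.57, -0.52 and -4.40 in HFD 3M, 0.15, -3.59 and -2.19 in ND 4d, -0.45, -3.53 and -3.76 in HFD 4d and -2.81, -1.08 and -1.34 in aged telogen. This median was highest on the same array as the mitotic genes in ND 4d, HFD 4d and aged telogen. The summed linear level of the T cell list was not in HFD 4d, at 6.27, 4.41 and 7.99, or in aged telogen, at 6.63, 5.7 and 6.74. The fibroblast and papilla median, close to the dimmest detected signal, was highest on the mitotic-high array in ND 3M (-4.7, -6.07 and -7.14), HFD 3M (-4.18, -6.27 and -7.14) and HFD 4d (-4.14, -5.96 and -6.27). The melanocyte median was so in ND 3M (-0.98, -1.31 and -1.08), ND 4d (-0.1, -0.5 and -0.9) and HFD 4d (-0.69, -0.85 and -1.16), and the hair germ and matrix median in ND 3M (-1.56, -2.18 and -2.81) and HFD 3M (-0.61, -2.49 and -3.09). Medians of further lists were also highest there: macrophage and Langerhans and red cells in ND 3M, mast cells in HFD 3M, and sebaceous, endothelial and red cells in ND 4d. In HFD 4d this held for differentiated epidermis, sebaceous, macrophage and Langerhans, mast and red cells. Of these marker lists, none other than T cells had its highest median on replicate 2 of aged telogen. Summed linear levels were highest there for hair germ and matrix (10.3, 13.4 and 10.3), sebaceous (6.99, 10.1 and 7.2) and endothelial genes (0.305, 1.46 and 0.718). The sums of the other marker lists were not. The part of these cells in the result was not tested.

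**Figure D5:**
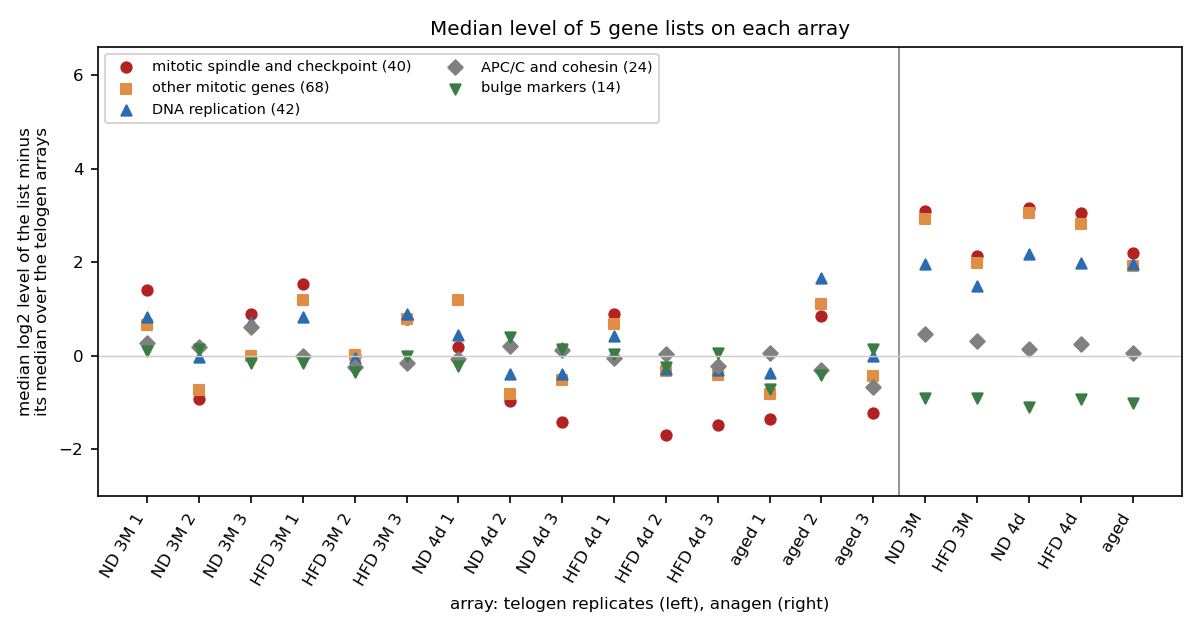
Median log2 level of 5 gene lists on each array, each list set relative to its own median over the 15 telogen arrays, with telogen replicates on the left and anagen arrays on the right. The mitotic and DNA replication lists are high on all anagen arrays and vary between telogen replicates. The bulge list and the list of subunits and cofactors of the anaphase-promoting complex (APC/C) and cohesin move less.

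The spread between replicates was accordingly wide. The median SD within telogen groups was 1.73 for the 40 genes and 0.67 for all 18727 genes tested, and 24 of the 40 were in the top 10% of genes by this SD. On genes well above background on all 20 arrays it was 1.32 for 24 of the 40 and 0.59 for all 13010. It was 1.5 for the other mitotic list, 0.97 for DNA replication, 0.57 for the anaphase-promoting complex and cohesin and 0.32 for bulge genes. Over the 5 anagen arrays the median SD of the 40 was 0.60, and 38 of them had the larger SD in telogen; Pttg1 (0.29 within telogen groups) and Kif2c (0.70) did not. Pttg1, Bub3 (0.39) and Cdc20 (0.43) had the smallest SDs within telogen groups.

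The diet comparisons ask whether high fat feeding shifted mitotic genes in resting cells. None of the 40 was called, and the groups' medians overlapped in their spread: the mean of the array medians was -0.33 ± 1.22 (SD, n = 3) in ND 3M and -0.02 ± 0.77 in HFD 3M, and -1.51 ± 0.83 in ND 4d and -1.55 ± 1.43 in HFD 4d. After 3 months the median difference, HFD minus ND, was 0.55 with 31 genes higher (all genes 0), 0 of 40 were called by limma (background 0%) and 2 had an unadjusted p under 0.05, against 3.9% of all genes tested. Those were Cdc20, at 1.66, 1.09 and 1.95 in HFD and 0.93, 0.25 and 0.23 in ND (1.09 ± 0.37, adjusted p = 1), and Cdc25c, at -0.97, 0.17 and -1.54 against -5.12, -5.12 and -1.74 (3.22 ± 1.30, adjusted p = 1). Neither overlapped between the diets, and nor did Anln. The share of all genes without overlap between 2 telogen groups was not counted, so such statements here and below are description only. On the lower side Nuf2 was at -0.83, -4.97 and -0.84 in HFD against 2.07, -0.70 and -0.90 (-2.37 ± 1.45), and Pttg1 at 1.81, 2.42 and 1.71 against 2.14, 2.35 and 2.25 (-0.26 ± 0.29). Both overlapped.

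After 4 days of HFD the median difference was -0.12 with 19 genes higher (all genes -0.03), and 0 of 40 were called by limma (background 0%), with 1 at an unadjusted p under 0.05, against 4.36% of all genes. That was Pttg1, at 1.1, 0.93 and 1.29 in HFD and 2.12, 2.21 and 2.17 in ND, with no overlap and a difference of -1.06 ± 0.29 (adjusted p = 0.767). Cdc20 was at 1.25, 0.74 and 0.35 against 1.47, 0.90 and 1.72 (-0.59 ± 0.37). Cenpf, at 0.57, -4.53 and -2.43 against -3.77, -5.00 and -4.17, and Ect2, at -0.44, -0.71 and -2.16 against 1.65, -8.04 and -8.06 with 1 of 3 ND arrays well above background, had the smallest p on the higher side (2.19 ± 1.12 and 3.71 ± 2.45). Kif4 was not well above background on any HFD 4d telogen array. With that group set at the dimmest detected signal, it was 2.68-fold lower than in ND 4d. The ranges overlapped, at -5.13 to -4.64 in HFD 4d and -4.94 to -2.73 in ND 4d. The fitted difference was -1.43 ± 1.20, with an adjusted p of 1. The change of the diet effect with duration, 3 months minus 4 days, had a median of 0.80 over the 40 (all genes 0), and 0 were called by limma (background 0%), with 1 at an unadjusted p under 0.05 (3.74% of all genes), Cdc20 at 1.68 ± 0.53. Kif2c followed at 1.63 ± 0.78, with Nuf2 (-4.03 ± 2.05) and Cenpf (-2.03 ± 1.58) on the other side.

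The shares of the 40 at an unadjusted p under 0.05 were thus near those of all genes. These comparisons were imprecise for mitotic genes: the median SE of a difference between 2 telogen groups was 1.29 for the 40 and 0.53 for all genes tested. Leaving out ND 3M replicate 2, the low array of its group, moved the 3-month median from 0.55 to -0.08, and leaving out HFD 4d replicate 1 moved the 4-day median from -0.12 to -0.85. Each diet pair shared a slide, but the ND telogen arrays lay on slide row 1 and the HFD telogen arrays on slide row 2. Diet and slide row therefore cannot be told apart in telogen.

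Aged telogen was compared with both ND groups, with the slide and the scan day changing together with age. Against ND 3M the median difference, aged minus ND, was -0.63 with 30 of 40 lower (all genes 0.09). None of the 40 was called by limma, where 12 genes were (0.0641%), and 3 had an unadjusted p under 0.05, all lower, against 11.9% of all genes in either direction. Nuf2, well above background on 2 of 3 aged arrays, was at -5.32, -2.33 and -4.67 there and 2.07, -0.70 and -0.90 in ND 3M, without overlap (-4.27 ± 1.45, adjusted p = 0.305). Kif4 was at -5.11, -5.19 and -3.92 against 0.20, -4.36 and -1.36 (-2.90 ± 1.20, adjusted p = 0.375), with ND 3M replicate 2 inside the aged range. Ndc80 was the third, at -1.74, -1.76 and -1.52 against 0.98, -0.75 and 1.27 (-2.17 ± 0.99). On the higher side Cdc20, at 0.63, 1.44 and 1.38 against 0.93, 0.25 and 0.23, and Kif2c, at -1.30, -0.63 and -0.37 against -1.89, -1.55 and -1.45, had differences of 0.68 ± 0.37 and 0.86 ± 0.55.

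Against ND 4d the median difference was 0.04 with 21 of 40 higher (all genes -0.08), 0 of 40 were called by limma, where 7 genes were (0.0374%), and 1 had an unadjusted p under 0.05 (7.85% of all genes). Cenpf was at 0.35, 0.89 and -1.08 in aged cells and -3.77, -5.00 and -4.17 in ND 4d (4.37 ± 1.12, adjusted p = 0.296), and Kif23 at -1.94, -1.07 and -0.23 against -2.09, -3.43 and -3.72 (2.00 ± 1.11). Neither overlapped. Nuf2 was at -5.32, -2.33 and -4.67 against -0.51, 0.31 and -4.61 (-2.50 ± 1.45), and Bub1 was well above background on 0 aged and 1 ND 4d array, so it gave no usable difference. The ND groups were compared with each other as mice 5 and 2 months old on ND for different times: the median was 0.94 with 31 of 40 higher in ND 3M (all genes -0.14), and 0 of 40 were called by limma, where 3 genes were (0.016%), with 3 at an unadjusted p under 0.05 (11.8% of all genes). Cenpf, at 0.62, 0.46 and 0.19 in ND 3M, and Kif23, at -0.85, -0.46 and 1.44, lay above all ND 4d arrays (4.74 ± 1.12, adjusted p = 0.219, and 3.12 ± 1.11). Cdc20 (-0.89 ± 0.37) and Spc25 (-1.22 ± 1.24) were on the lower side. The aged and the 2 ND comparisons share arrays, so the Cenpf and Nuf2 values are not separate evidence. With slide as a block over 20 arrays the median of aged against ND 3M turned from -0.63 to 0.53 and that of ND 3M against ND 4d from 0.94 to -1.38, so neither direction was settled.

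Between single anagen arrays, where no test was possible, the HFD 3M array had 37 of the 40 genes below the ND 3M array, with a median difference of -0.89, and 17 were lower by more than 2-fold, against 15.2% of 14600 genes detected on both. Kif11 differed by -2.49, Tpx2 by -2.06 and Bub1 by -2.01, while Kif2c (0.37), Kif23 (0.28) and Nuf2 (0.11) were the 3 higher. After 4 days the HFD array had 26 genes lower, a median of -0.15, and 4 lower by more than 2-fold (12.4% of 16339 genes), Plk1, Aspm, Ttk and Kif23. The aged array had 39 genes below ND 3M, with a median of -0.87 and 16 lower by more than 2-fold (14.4% of 14384 genes), led by Aspm at -2.53. It also had 39 below ND 4d, with a median of -0.91 and 18 lower by more than 2-fold (13.6% of 15618 genes), led by Nuf2 at -3.49. Cenpa went the other way in both, by 0.87 and 1.25. The median over all genes was 0.22, -0.07, 0.15 and 0.00 in these 4 comparisons. Each rests on 1 array a side, and in each pair the arrays lay on different slides, so slide and condition cannot be told apart. The slide of the HFD 4d and aged anagen arrays was also scanned on another day than the others.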

How the data were processed

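Total RNA was purified with a column kit and labelled with Cy3 as cDNA, per the labels' protocols. The deposited scanner files hold the authors' spot intensities from Agilent Feature Extraction 10.7.1.1, per the file headers, background-subtracted without scaling across arrays. A further deposited table gives a linear signal per probe, which matched processed intensity divided by each array's 75th percentile, uncentred, with column medians of 0.088 to 0.168; it served as an alternative.

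Intensities were averaged over a probe's spots, without 62 to 159 outlier spots per array, put on the log2 scale and reduced by the array's 75th percentile. Probes were named through transcript accessions to RefSeq (32994 of 56605 matched 1 symbol). Tests kept probes that the scanner called well above background on every array of some telogen group or on 3 or more anagen arrays, and the brightest probe stood for its gene, which left 18727 genes. limma 3.58.1 (R 4.3.3) was fitted over the 15 telogen arrays, and over all 20 with condition as a factor for anagen; tests were two-sided, p-values were adjusted by Benjamini-Hochberg over the 18727 genes, and the threshold was 0.05. The fit was tested on simulated data. Genes past the threshold were described in full up to 12 by p, otherwise 2 in each direction, with a fixed gene for each role and up to 3 for each list. The 40 genes and the lists were chosen with earlier results of these data known. A bound on a fold sets the group not above background at the dimmest detected signal of its arrays. Equally numbered arrays were not treated as pairs: their deviations from the group means correlated between -0.14 and 0.06. In telogen the replicate number goes with the slide column, so the number is not free of array position. The number of arrays limits the precision. Alternatives varied background correction, scaling, filter, probe choice, variance model, array weights, slide and the arrays included.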

Additional observations from a re-analysis of the deposited data

Results flagged for a closer look

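Pttg1 and Bub3 drew attention because the anagen array lay on opposite sides of all 3 telogen arrays in different conditions; the difference between conditions was not tested, since each has 1 anagen array. Pttg1, which encodes securin, was below all 3 telogen arrays in ND 3M (difference of -0.84), HFD 3M (-0.96), ND 4d (-0.88) and aged cells (-1.23), and above them in HFD 4d (1.04), where the telogen arrays were also the lowest of the 5 groups. Bub3 was below its telogen arrays in HFD 3M (-0.29) and above them in ND 3M (0.83), ND 4d (0.80) and HFD 4d (0.57).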

How the results depend on the processing

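No alternative turned the sign of a called gene. The count of 28 called genes in anagen against telogen fell to 17 with slide as a block and ranged from 14 (without ND 4d anagen) to 30 (without HFD 4d telogen replicate 1) with single arrays left out, through 17 without ND 3M anagen and 16 without HFD 4d anagen; the median difference ranged from 2.92 to 3.56. Quantile normalization and a percentile over detected probes each ended 2 calls and no filter 3. With single arrays left out, 0 genes were called in each telogen comparison, and medians ranged from -0.08 to 1 (HFD 3M), -0.85 to 0.33 (HFD 4d), 0 to 1.36 (diet by duration), -1.36 to -0.26 and -0.38 to 0.52 (aged against ND 3M and ND 4d) and 0.4 to 1.89 (ND 3M against ND 4d). With slide as a block the median of aged against ND 3M was 0.53 and of ND 3M against ND 4d -1.38. In that fit only the HFD 3M and HFD 4d anagen arrays, which lay off the slides of their telogen arrays, separate slide from condition. These medians therefore rest on those single arrays, and the cause of the change was not tested. The replicate number as a block changed no count, at 0 called genes in each telogen comparison. The medians (0.55 for HFD 3M) could not change, since every telogen group holds the same replicate numbers. Equally numbered arrays had a median correlation of 0.01. No paired analysis was possible for anagen because its arrays carry no number. Genes near background in telogen, such as Bub1, have uncertain differences.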
